A study of Mus musculus with 24 samples.

Results

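The comparison described here is the genotype difference of the BMP4 response in myotubes. For each gene, the change on BMP4 was taken in MuSK-/- myotubes and in wild-type myotubes, and the wild-type change was subtracted from the MuSK-null change. It used the 12 myotube arrays of a series of 24, which fall into 4 groups of 3. Both cell lines came from H-2Kb-tsA58 mice, whose muscle cells carry a temperature-sensitive large T antigen that lets myoblasts divide at 33 °C. Each genotype was 1 cell line, so a genotype contrast was also a contrast of lines. All myotubes had been differentiated for 3 days at 37 °C in 5% horse serum, with 0 h of serum deprivation. Treated myotubes received 25 ng/ml BMP4 for 8 h, and untreated myotubes received none. The labels call the 3 samples of a group biological replicates and do not say whether they were separate cultures, so the p-values measure only the spread between these samples.

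Bone morphogenetic protein 4 (BMP4) is a secreted ligand that binds paired type I and type II serine/threonine kinase receptors. The receptors phosphorylate the transcription factors Smad1, Smad5 and Smad9, which enter the nucleus with Smad4 and act on target genes such as the Id genes and the inhibitory Smads. In muscle cells BMP signalling holds back differentiation, in part through Id proteins, which bind the E-protein partners of the myogenic factors, and it can turn myogenic cell lines toward an osteoblast programme. MuSK, a receptor kinase at the synapse between nerve and muscle, organises acetylcholine receptors in response to agrin and Lrp4. The design asks whether cells with and without MuSK respond to BMP4 in the same way.

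RNA was measured on Affymetrix gene arrays, and every value is a log2 signal, so a step of 1 is a doubling. Median signals of the 12 arrays over all 35556 rows lay between 7.38 and 7.45, and arrays of a group correlated at 0.996 to 0.998 over 19938 genes. Musk was read first as a check of the labels. Its probe set (10505145) gave 12.72, 12.69 and 12.76 on the untreated wild-type arrays and 12.84, 12.78 and 12.84 after BMP4. It gave 11.17, 11.24 and 11.24 on the untreated MuSK-null arrays and 11.32, 11.32 and 11.30 after BMP4. The MuSK-null arrays were all lower, by 1.51 log2 units untreated (difference -1.51, adjusted p = 5.68e-14), although signal remained, and the labels do not say which exons were deleted. The difference of responses for Musk was 0.01 ± 0.10 (SE, adjusted p = 0.989) and was not called. All 12 myotube markers, such as Myh3 and Acta1, were above a floor of 6.62 in both lines, and none had a called difference of responses. The floor is the 95th percentile of the mean signals of 1027 olfactory receptor genes, and signals below it have little meaning as amounts. Of these markers, 9 were lower and 0 higher in untreated MuSK-null myotubes, where 18.0% of all genes were lower and 19.4% higher. Among the other 12 arrays, 1 from each group of myoblasts (4 in all) deviated from its group mean together with the other 3, with pairwise correlations of 0.421 to 0.544, and the counts of calls and the named genes' changes between stages are given with and without them.

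BMP4 changed different genes, or the same genes by different amounts, in the myotubes of the 2 lines. The difference of responses was called (adjusted p under 0.05, limma) for 640 of 19938 genes, which is 3.21%. It was higher in MuSK-null myotubes for 300 genes (1.5%) and lower for 340 (1.71%). Its absolute size had a median of 0.549 log2 units over the called genes and ran from 0.269 to 2.675, and 53 genes reached at least 1. The median SE was 0.129, and the median SD within a myotube group was 0.106. The split by direction depended on how the arrays were centred. With each array centred on the median of its rows that name 1 gene, 706 genes were called. Of these 63.9% were higher, against 46.9% without centring. That centring moved the median difference of all genes from -0.032 to 0.019. Over the 19938 genes the array medians were 7.91, 7.88 and 7.89 in untreated and 7.90, 7.93 and 7.91 in treated wild type. In MuSK-null they were 7.88, 7.89 and 7.89 untreated and 7.87, 7.84 and 7.87 treated, lowest in this last group. In the same arrays the BMP4 response itself was called for 1749 genes (8.77%) in wild-type myotubes, 4.40% up and 4.37% down. In MuSK-null myotubes it was called for 2245 genes (11.3%), 5.36% up and 5.90% down.

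Most called differences came from a response called in 1 line. Of the 640 genes, 143 rose on BMP4 in MuSK-null myotubes with no called change in wild type, and 153 fell in MuSK-null alone. In wild type alone 101 rose and 74 fell. Both lines responded in the same direction in 85 genes with the larger change in MuSK-null and in 32 with the larger change in wild type. The 2 lines moved in opposite directions for 34 genes, 16 with the higher response in MuSK-null and 18 with the lower. For 18 genes neither response passed on its own. A response called in 1 line and missed in the other does not by itself show a difference. These classes therefore describe genes for which the difference itself was called.

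**Figure D1:**
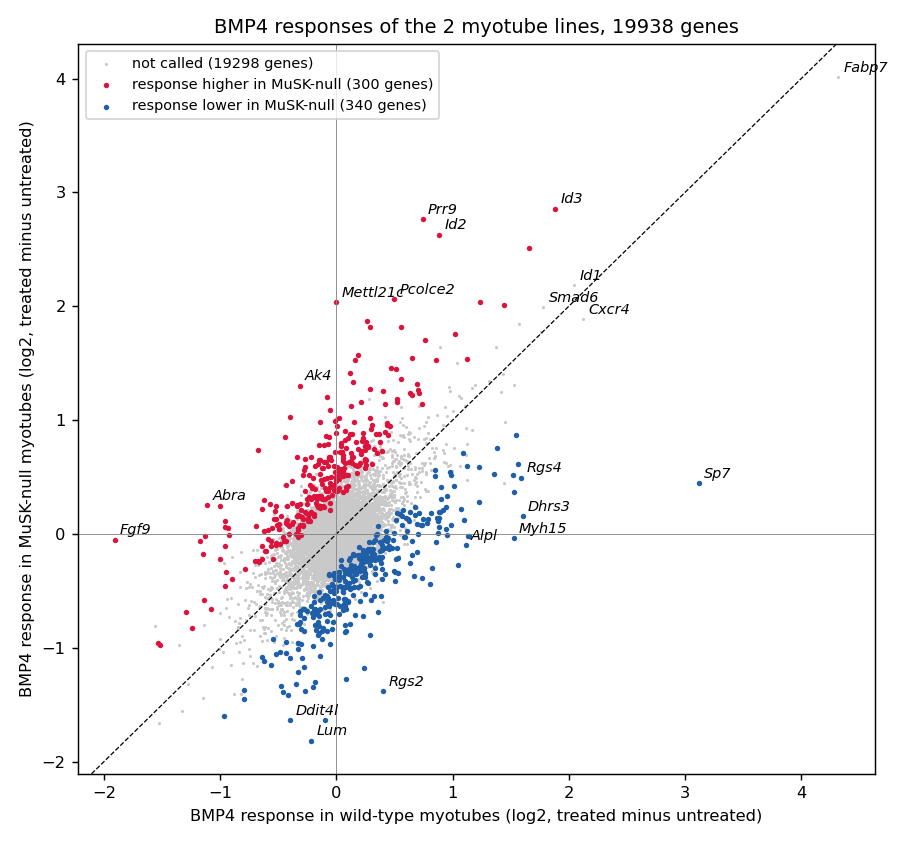
BMP4 response in MuSK-null myotubes (y axis, log2 treated minus untreated) against that in wild-type myotubes (x axis) for 19938 genes, with red and blue points for called differences of responses and the dashed line where both responses are equal. Fabp7, Id1, Smad6 and Cxcr4 lie far from 0 and near the line, while Sp7 lies farthest below it and Mettl21c, Prr9 and Id2 lie well above it.

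The Id genes, the best known direct BMP targets, were not alike. Id1 rose in both lines. It read 9.20, 9.03 and 9.06 on the untreated wild-type arrays and 11.09, 11.21 and 11.14 after BMP4. In MuSK-null myotubes it read 9.19, 9.18 and 8.95 before and 11.32, 11.16 and 11.40 after. The treated arrays were far above the untreated ones in each line and the lines overlapped at both points. The rise was 2.05 log2 units in wild type and 2.19 in MuSK-null, and the difference of 0.14 ± 0.10 (SE, adjusted p = 0.623) was not called.

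Id2 (probe set 10399691) started from different levels. Its untreated wild-type arrays read 11.61, 11.72 and 11.60, and the treated ones 12.56, 12.44 and 12.58. The untreated MuSK-null arrays read 9.17, 9.44 and 9.07, and the treated ones 11.78, 11.90 and 11.89. All 6 MuSK-null arrays were below the 3 treated wild-type arrays, and the treated MuSK-null arrays just exceeded the untreated wild-type arrays. BMP4 raised Id2 by 0.88 log2 units in wild type and by 2.63 in MuSK-null, so the difference of responses was 1.75 ± 0.11 (SE, adjusted p = 3.46e-09). MuSK-null minus wild type was -2.42 untreated and -0.67 treated, so the larger response narrowed a gap and left Id2 lower in MuSK-null.

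Id3 changed sides. It read 9.19, 8.84 and 9.24 untreated and 11.06, 10.94 and 10.92 treated in wild type. MuSK-null arrays gave 8.61, 8.62 and 8.48 untreated and 11.39, 11.32 and 11.57 treated. The untreated MuSK-null arrays were all below the wild-type ones, and the treated MuSK-null arrays were all above. Its rise was 1.88 log2 units in wild type and 2.86 in MuSK-null, a difference of 0.97 ± 0.13 (SE, adjusted p = 4.67e-05). Id4, the least induced member, rose by 0.48 in wild type (adjusted p = 0.00222) and changed by 0.08 in MuSK-null (adjusted p = 0.75), and its difference of -0.40 was not called (adjusted p = 0.162). Without MuSK-null BMP4 replicate 2 the Id4 difference was -0.51 and was called.

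The inhibitory Smads, which block the receptors and their Smads in a negative feedback, rose in both lines. Smad6 read 8.23, 8.27 and 8.19 untreated and 10.02, 10.05 and 9.96 treated in wild type, and 8.54, 8.58 and 8.43 and 10.62, 10.34 and 10.57 in MuSK-null. Its rises of 1.78 and 1.99 log2 units differed by 0.21 ± 0.11 (SE, adjusted p = 0.41), and Smad7's rises of 1.57 and 1.85 differed by 0.28 (adjusted p = 0.312). Neither difference was called. Fabp7 and Cxcr4, which also responded strongly, had no called difference either. Fabp7, which carries fatty acids in the cell, rose by 4.32 in wild type and 4.01 in MuSK-null (difference -0.31, adjusted p = 0.198). Cxcr4, the receptor of the chemokine Cxcl12, rose by 2.12 and 1.89 (difference -0.23, adjusted p = 0.323).

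Over the whole list of BMP and Smad targets, 30 were measured, and 4 were called higher and 4 lower, 26.7% of the list against 3.21% of all genes. The median difference was 0.078, against -0.032 over all genes. The list was made of genes known to respond to BMP, and 73.3% of it responded in wild-type myotubes. It was chosen with earlier results of these data known, so its share of calls is not separate evidence. The same holds for the other gene lists described below. Sp7 is counted in the osteoblast list too. The higher members were Id2, Id3, Fst and Grem1, and the lower members were Sp7, Nkd2, Bambi and Tcf7l1. Grem1 (0.57) and Tcf7l1 (-0.42) were named after their values were seen. With each array left out in turn, 4 or 5 of the list were called higher and 3 to 5 lower. On a linear scale Grem1's difference had the opposite sign. Follistatin (Fst), a secreted protein that binds activins and BMPs, went from 12.56 ± 0.02 to 12.29 ± 0.05 (SD) in wild type and from 12.41 ± 0.03 to 13.07 ± 0.10 in MuSK-null. It thus fell in wild type (-0.27) and rose in MuSK-null (0.66), a difference of 0.93 ± 0.10 (SE, adjusted p = 3.06e-06). Nkd2, an inhibitor of Wnt signalling, did the reverse, with 0.51 in wild type and -0.41 in MuSK-null (difference -0.92, SE 0.14, adjusted p = 0.000235). Bambi, a decoy receptor, rose by 0.98 in wild type and by 0.52 in MuSK-null (difference -0.46, adjusted p = 0.0119).

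The letters upstream of Id2 and Id3, the Id genes with a called difference, and of 3 other genes with large differences are given as the sequence that BMP-activated Smads could meet. Each is a RefSeq promoter of GRCm38.p6, from 250 bases before to 50 bases after the gene start, written 5′ to 3′ along the gene. Fgf9, Rgs2 and Rgs4 are described further on. Fgf9 fell in wild type alone, Rgs2 fell in MuSK-null alone, and Rgs4 rose more in wild type. Capitals mark the GC-rich letters GGCGCC and GGAGCC, to which Smad1 and Smad5 can bind, and the E-box CAGCTG, which myogenic factors and their E-protein partners recognise, each searched on both strands. The windows are chr12:25096043-25096342 on the minus strand for Id2, chr4:136143572-136143871 on the plus strand for Id3, chr14:58072436-58072735 on the plus strand for Fgf9, chr1:144004100-144004399 on the minus strand for Rgs2 and chr1:169747593-169747892 on the minus strand for Rgs4.
Id2: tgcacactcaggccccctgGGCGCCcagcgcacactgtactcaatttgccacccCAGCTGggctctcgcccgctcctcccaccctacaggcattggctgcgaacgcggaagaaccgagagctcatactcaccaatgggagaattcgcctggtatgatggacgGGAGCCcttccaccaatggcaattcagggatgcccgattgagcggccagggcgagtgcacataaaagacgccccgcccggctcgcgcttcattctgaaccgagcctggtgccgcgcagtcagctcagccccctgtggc
Id3: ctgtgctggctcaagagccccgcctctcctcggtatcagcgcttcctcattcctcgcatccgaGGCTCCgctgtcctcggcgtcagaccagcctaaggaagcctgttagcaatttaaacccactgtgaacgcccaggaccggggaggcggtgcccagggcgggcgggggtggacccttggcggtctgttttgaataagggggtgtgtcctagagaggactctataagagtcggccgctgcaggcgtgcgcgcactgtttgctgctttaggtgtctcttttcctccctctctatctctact
Fgf9: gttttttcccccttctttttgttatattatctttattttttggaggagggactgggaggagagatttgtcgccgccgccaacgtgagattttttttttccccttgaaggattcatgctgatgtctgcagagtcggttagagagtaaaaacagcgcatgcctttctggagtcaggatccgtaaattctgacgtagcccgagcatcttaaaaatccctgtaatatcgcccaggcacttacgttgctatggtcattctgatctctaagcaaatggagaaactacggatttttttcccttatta
Rgs2: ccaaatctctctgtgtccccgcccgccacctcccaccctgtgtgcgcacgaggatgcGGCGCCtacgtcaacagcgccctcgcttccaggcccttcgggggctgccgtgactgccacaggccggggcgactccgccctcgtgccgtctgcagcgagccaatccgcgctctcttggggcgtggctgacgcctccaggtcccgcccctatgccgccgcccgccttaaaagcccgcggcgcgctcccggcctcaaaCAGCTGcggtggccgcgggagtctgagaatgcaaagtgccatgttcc
Rgs4: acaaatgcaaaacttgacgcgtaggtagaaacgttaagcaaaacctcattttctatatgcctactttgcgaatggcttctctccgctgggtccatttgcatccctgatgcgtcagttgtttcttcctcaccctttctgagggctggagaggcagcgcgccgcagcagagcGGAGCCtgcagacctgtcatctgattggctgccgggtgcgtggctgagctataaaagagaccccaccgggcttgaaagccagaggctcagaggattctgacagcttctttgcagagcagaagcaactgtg

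Id2 held 1 copy of each of the 3 motifs, Id3 held 1 GGAGCC, and Fgf9 held none of them. Rgs2 held 1 GGCGCC and 1 CAGCTG, and Rgs4 held 1 GGAGCC. Such letters are common: of 32851 promoters in the table, 11.9% held GGCGCC, 30.8% held GGAGCC and 16.3% held CAGCTG. A match describes these letters and does not show binding.

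Among genes of the pathway itself, Rgma, Sostdc1, Bmper and Fstl1 had called differences. Of 24 receptors, coreceptors and Smads, 1 was called (4.17%, near the 3.21% of all genes), the BMP coreceptor Rgma, which went from 9.47 ± 0.07 to 8.33 ± 0.07 (SD) in wild type and from 9.75 ± 0.03 to 9.17 ± 0.10 in MuSK-null. It fell in both lines, by 1.14 in wild type and by 0.58 in MuSK-null, which makes the difference 0.55 ± 0.12 (SE, adjusted p = 0.00982). The median difference of these 24 genes was -0.018. Among 25 ligands and secreted antagonists, 2 were called higher and 1 lower, 12% of the list, with a median of -0.072. Sostdc1, an antagonist of BMP and Wnt ligands, read 5.99 ± 0.03 (SD) untreated and 5.90 ± 0.25 treated in wild type, and moved from 6.31 ± 0.11 to 7.51 ± 0.25 in MuSK-null. Its difference was 1.28 ± 0.18 (SE, adjusted p = 0.000114). Of its group means only that of treated MuSK-null was above the floor of 6.62. Bmper, which binds BMPs outside the cell, rose by 0.64 in MuSK-null, against 0.13 in wild type (difference 0.52, adjusted p = 0.0038). The lower call, Fstl1 (-0.29, adjusted p = 0.0238), was lost when any 1 of 7 arrays was left out, with an adjusted p of up to 0.0745 over all alternatives.

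The osteoblast genes that passed all had the lower response in MuSK-null myotubes. Sp7 (osterix, probe set 10433003), a transcription factor required for osteoblast formation, had the largest difference of all 19938 genes. It read 7.39, 7.42 and 7.18 on the untreated wild-type arrays and 10.54, 10.46 and 10.36 on the treated ones. The MuSK-null arrays gave 6.01, 6.50 and 6.57 untreated and 6.76, 6.99 and 6.66 treated. The treated wild-type arrays were all above every other array, and both MuSK-null groups were below untreated wild type. BMP4 raised Sp7 by 3.12 log2 units, or 8.69-fold, in wild type and by 0.45, or 1.36-fold, in MuSK-null. The difference was -2.67 ± 0.19 (SE, adjusted p = 9.66e-09). The untreated MuSK-null arrays were all below the floor of 6.62.

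Alpl, tissue-nonspecific alkaline phosphatase and an early osteoblast enzyme, read 7.29, 7.20 and 7.14 untreated and 8.30, 8.33 and 8.33 treated in wild type. Its MuSK-null values were 7.07, 7.0 and 7.25 untreated and 7.07, 7.12 and 6.83 treated. The 3 treated wild-type arrays were above all others. The untreated MuSK-null arrays overlapped both the untreated wild-type and the treated MuSK-null arrays, which did not overlap each other. Alpl rose by 1.11 in wild type (adjusted p = 1.16e-07) and changed by -0.10 in MuSK-null (adjusted p = 0.709), a difference of -1.21 ± 0.15 (SE, adjusted p = 2.35e-05). Dmp1, a bone matrix phosphoprotein, rose by 0.53 in wild type and changed by -0.34 in MuSK-null (adjusted p = 0.0813), a difference of -0.88 ± 0.17 (SE, adjusted p = 0.004). In all, 0 of 18 measured osteoblast genes were called higher and 3 lower, 16.7% of the list against 3.21% of all genes, with a median difference of -0.219 against -0.032 over all genes. With each array left out in turn, 3 were called lower. In 2 of those fits, without wild-type BMP4 replicate 2 or without MuSK-null BMP4 replicate 3, the parathyroid hormone receptor Pth1r was called higher (0.57 in each). Pth1r was named after its values were seen. Of 17 cartilage genes, 2 were called lower and 0 higher, 11.8% of the list against 3.21% of all genes, with a median of -0.148. They were Sox9 (-0.49, adjusted p = 0.00268) and Sox6 (-0.61, adjusted p = 0.000174), transcription factors of chondrocytes. The difference of largest size in the list was positive, that of Prg4 (0.75, adjusted p = 0.0909), and was not called. Prg4 was named after its values were seen. Sox6 fell by 0.77 in MuSK-null from a higher untreated level, 9.00 ± 0.07 (SD) against 7.95 ± 0.06 in wild type.

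RGS proteins speed up the hydrolysis of GTP on G protein alpha subunits and so shorten signals from G protein coupled receptors. Rgs2 fell on BMP4 in MuSK-null myotubes. It read 6.77, 6.90 and 6.64 untreated and 7.21, 7.24 and 7.06 treated in wild type. On MuSK-null arrays it read 8.13, 8.12 and 7.81 untreated and 6.62, 6.72 and 6.59 treated. The untreated MuSK-null arrays were the highest of all 12, and after BMP4 the MuSK-null arrays lay below every treated wild-type array. The treated MuSK-null and untreated wild-type arrays lay near the floor of 6.62. Its fall in MuSK-null was called (-1.38, adjusted p = 1.68e-07), its change in wild type was not (0.40, adjusted p = 0.0815), and the difference was -1.78 ± 0.20 (SE, adjusted p = 5.05e-06).

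Rgs4 rose in both lines, from untreated signals near the floor of 6.62. It read 6.84, 6.62 and 6.74 untreated and 8.41, 8.18 and 8.37 treated in wild type. MuSK-null arrays gave 6.62, 6.68 and 6.77 untreated and 7.29, 7.21 and 7.05 treated. The untreated groups overlapped, and the treated groups did not. Rgs4 rose by 1.59 in wild type and by 0.49 in MuSK-null, a difference of -1.09 ± 0.13 (SE, adjusted p = 9.27e-06). Among 20 measured RGS genes 0 were called higher and 3 lower, 15% of the list against 3.21% of all genes. The third was Rgs13 (-1.05), whose group means were all below the floor. The median over the list was -0.193. With each array left out in turn the lower calls numbered 3 to 5, with 5 without wild-type BMP4 replicate 1.

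Among genes that rose in MuSK-null myotubes alone, Mettl21c had the largest difference. Mettl21c is a protein lysine methyltransferase expressed in muscle. Its wild-type arrays read 5.52, 5.75 and 5.45 untreated and 5.65, 5.43 and 5.64 treated. The MuSK-null arrays read 6.13, 6.13 and 6.38 untreated and 8.23, 8.24 and 8.28 treated. Only the treated MuSK-null arrays were above the floor of 6.62. The rise there was 2.04, the change in wild type was not called (adjusted p = 0.998), and the difference was 2.04 ± 0.12 (SE, adjusted p = 1.06e-09).

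Other genes of that class were Samd7, Slc7a11 and Sfrp2. Slc7a11, the cystine-glutamate exchanger that feeds glutathione synthesis, went from 8.20 ± 0.19 to 8.36 ± 0.13 (SD) in wild type and from 8.77 ± 0.10 to 10.30 ± 0.07 in MuSK-null. Its difference was 1.37 ± 0.13 (SE, adjusted p = 3.56e-07). Sfrp2, a secreted modulator of Wnt ligands, went from 8.77 ± 0.21 to 8.92 ± 0.05 (SD) in wild type and from 10.13 ± 0.04 to 11.46 ± 0.05 in MuSK-null. Its difference was 1.18 ± 0.11 (SE, adjusted p = 5.17e-07), and it widened a gap that was already 1.36 untreated. Prr9 and Pcolce2 rose in both lines and more so in MuSK-null. Prr9, a proline-rich protein, read 5.53, 5.79 and 5.54 untreated and 6.35, 6.46 and 6.28 treated in wild type, all below the floor. The MuSK-null arrays gave 6.21, 6.03 and 5.98 untreated and 8.95, 8.69 and 8.86 treated. The treated MuSK-null arrays were the only ones above the floor, and the difference was 2.02 ± 0.14 (SE, adjusted p = 9.66e-09). Pcolce2, an enhancer of procollagen processing, rose by 0.50 and 2.06 from overlapping untreated levels (difference 1.57, SE 0.20, adjusted p = 2.61e-05).

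The genes that moved in opposite directions included metabolic enzymes and transporters. Ak4, a mitochondrial adenylate kinase, read 8.09, 8.10 and 7.97 untreated and 7.74, 7.76 and 7.72 treated in wild type. Its MuSK-null values were 7.85, 7.91 and 8.02 untreated and 9.13, 9.32 and 9.23 treated. The untreated groups overlapped, and BMP4 moved the lines apart, down by 0.31 in wild type and up by 1.30 in MuSK-null (difference 1.62, SE 0.12, adjusted p = 9.66e-09). Adm, the vasodilator peptide adrenomedullin, changed by -0.40 and 1.03 (difference 1.43, SE 0.15, adjusted p = 2.57e-06). Egln3, an oxygen-sensing prolyl hydroxylase, changed by -0.34 and 0.68 (difference 1.02, adjusted p = 1.96e-06). Slc2a1, the glucose transporter Glut1, changed by -0.22 and 0.67 (difference 0.89, adjusted p = 3.21e-06). Pfkfb3, which makes an activator of glycolysis, rose in MuSK-null alone by 0.79, against -0.07 in wild type (difference 0.87, adjusted p = 8.81e-06). Egln3, Slc2a1 and Pfkfb3 were named after their values were seen, and no list of such genes was counted. Bnip3, a mitochondrial autophagy receptor from the atrophy list, rose by 0.72 in MuSK-null and changed by -0.01 in wild type (difference 0.73, SE 0.09, adjusted p = 2.61e-05).

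Abra, an actin-binding protein of striated muscle, read 10.18, 10.21 and 10.19 untreated and 9.20, 9.07 and 8.98 treated in wild type. On MuSK-null arrays it read 10.33, 10.39 and 10.33 untreated and 10.62, 10.58 and 10.61 treated. The treated wild-type arrays were the lowest and the treated MuSK-null arrays the highest, and the difference was 1.37 ± 0.10 (SE, adjusted p = 8.82e-09). Rrad, a small GTPase that inhibits voltage-gated calcium channels, fell by 0.68 in wild type and rose by 0.73 in MuSK-null. Its lines differed by -1.48 untreated and by -0.07 treated, the latter not called (adjusted p = 0.712). The reverse pattern, a rise in wild type with a fall in MuSK-null, held for Ptx3, a pentraxin of innate immunity (0.80 and -0.44, difference -1.24, adjusted p = 1.04e-06). It also held for Plagl1, an imprinted zinc-finger factor (0.74 and -0.39, difference -1.13, adjusted p = 2.26e-05). Plagl1 was far higher in MuSK-null throughout, at 11.02 ± 0.01 (SD) untreated against 7.30 ± 0.06.

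Fgf9 led the genes that fell in wild type alone. Fgf9 is a secreted fibroblast growth factor. It read 10.01, 9.85 and 9.87 untreated and 8.05, 7.96 and 7.99 treated in wild type. MuSK-null arrays gave 8.40, 8.35 and 8.47 untreated and 8.30, 8.47 and 8.30 treated. The untreated wild-type arrays were above all others, and the other 3 groups lay close together. The fall was 1.91 log2 units in wild type (change -1.91, adjusted p = 6.99e-12), the change in MuSK-null was -0.05 (adjusted p = 0.87), and the difference was 1.86 ± 0.14 (SE, adjusted p = 1.79e-08). The positive difference of Fgf9 was thus a fall in wild type and not a rise in MuSK-null. The same held for Egr3, an immediate early transcription factor (-1.15 in wild type, -0.17 in MuSK-null, difference 0.97, SE 0.16, adjusted p = 0.000494), and for Heyl, a Notch target of muscle progenitors (-0.69 and 0.07, difference 0.76, SE 0.13, adjusted p = 0.000752). In Egr3 and Heyl too the untreated level was lower in MuSK-null (MuSK-null minus wild type -1.35 and -0.68).

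Several genes fell in MuSK-null myotubes alone, from a level that was higher there before BMP4. Lum, the matrix proteoglycan lumican, read 4.71, 4.75 and 4.46 untreated and 4.39, 4.64 and 4.24 treated in wild type, all below the floor. The MuSK-null arrays gave 8.23, 8.30 and 8.17 untreated and 6.77, 6.10 and 6.40 treated. Untreated MuSK-null arrays stood above all others, and their fall of 1.81 log2 units (change -1.81, adjusted p = 3.23e-08) made the difference -1.60 ± 0.23 (SE, adjusted p = 0.000164). On the wild-type arrays, below the floor, a fall of Lum could not have been measured. Lum is 1 of 10 measured fibroblast markers, of which 7 were higher and 2 lower in untreated MuSK-null myotubes. Their summed linear signal was 9906 to 10506 on untreated and 10109 to 10587 on treated wild-type arrays. It was 22217 to 23233 on untreated and 20036 to 20424 on treated MuSK-null arrays. In MuSK-null, 4 of these markers fell on BMP4 and 1 rose, and Lum alone had a called difference of responses. Over all genes the untreated comparison called 19.4% higher and 18.0% lower in MuSK-null. In bulk RNA fewer cells of a type and less RNA per cell cannot be told apart, and the part of fibroblast-like cells in these results was not tested.

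F3, tissue factor of blood coagulation, went from 6.87 ± 0.07 to 6.95 ± 0.18 (SD) in wild type and from 10.06 ± 0.10 to 8.78 ± 0.07 in MuSK-null, a difference of -1.36 ± 0.12 (SE, adjusted p = 3.27e-07). Flvcr2, a membrane transporter, went from 6.94 ± 0.09 to 6.84 ± 0.19 (SD) in wild type and from 8.75 ± 0.09 to 7.11 ± 0.10 in MuSK-null, a difference of -1.54 ± 0.13 (SE, adjusted p = 1.01e-07). Both stood higher in untreated MuSK-null arrays than on any wild-type array, and after BMP4 Flvcr2 exceeded wild type by 0.27 (adjusted p = 0.0227). Cldn1, a tight junction protein, fell by 1.18 in MuSK-null (change -1.18) and was then -0.21 from wild type (adjusted p = 0.219). Ucp3, a mitochondrial carrier of muscle, fell by 1.37 in MuSK-null (change -1.37, difference -1.10, SE 0.21, adjusted p = 0.00254). Ddit4l, an inhibitor of mTOR signalling, fell in both lines and more in MuSK-null. It went from 9.76 ± 0.05 to 9.36 ± 0.01 (SD) in wild type and from 9.81 ± 0.05 to 8.18 ± 0.10 in MuSK-null, with no called difference untreated (adjusted p = 0.586), and its difference was -1.23 ± 0.10 (SE, adjusted p = 1.01e-07).

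The largest differences among genes that rose in wild type alone widened the gap between the lines. Dhrs3, which reduces retinaldehyde to retinol, read 9.29, 9.11 and 9.00 untreated and 10.73, 10.85 and 10.64 treated in wild type. Its MuSK-null values were 7.28, 7.09 and 7.30 untreated and 7.37, 7.24 and 7.54 treated. All MuSK-null arrays were below all wild-type arrays, and the difference was -1.44 ± 0.19 (SE, adjusted p = 4.29e-05). Myh15, a slow-type myosin heavy chain, read 5.90, 5.48 and 5.71 untreated and 7.25, 7.07 and 7.33 treated in wild type. On MuSK-null arrays it read 4.98, 4.85 and 4.85 untreated and 4.78, 4.90 and 4.89 treated. Only the treated wild-type arrays were above the floor. The difference was -1.56 ± 0.12 (SE, adjusted p = 2.09e-08). Emx2, a homeobox factor, rose by 1.05 in wild type and changed by -0.27 in MuSK-null (difference -1.32, SE 0.22, adjusted p = 0.000658). Grin3a, a subunit of NMDA receptors, rose by 1.15 and changed by -0.02 from untreated levels that did not differ by the test (difference -1.17, SE 0.13, adjusted p = 4.79e-06).

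**Figure D2:**
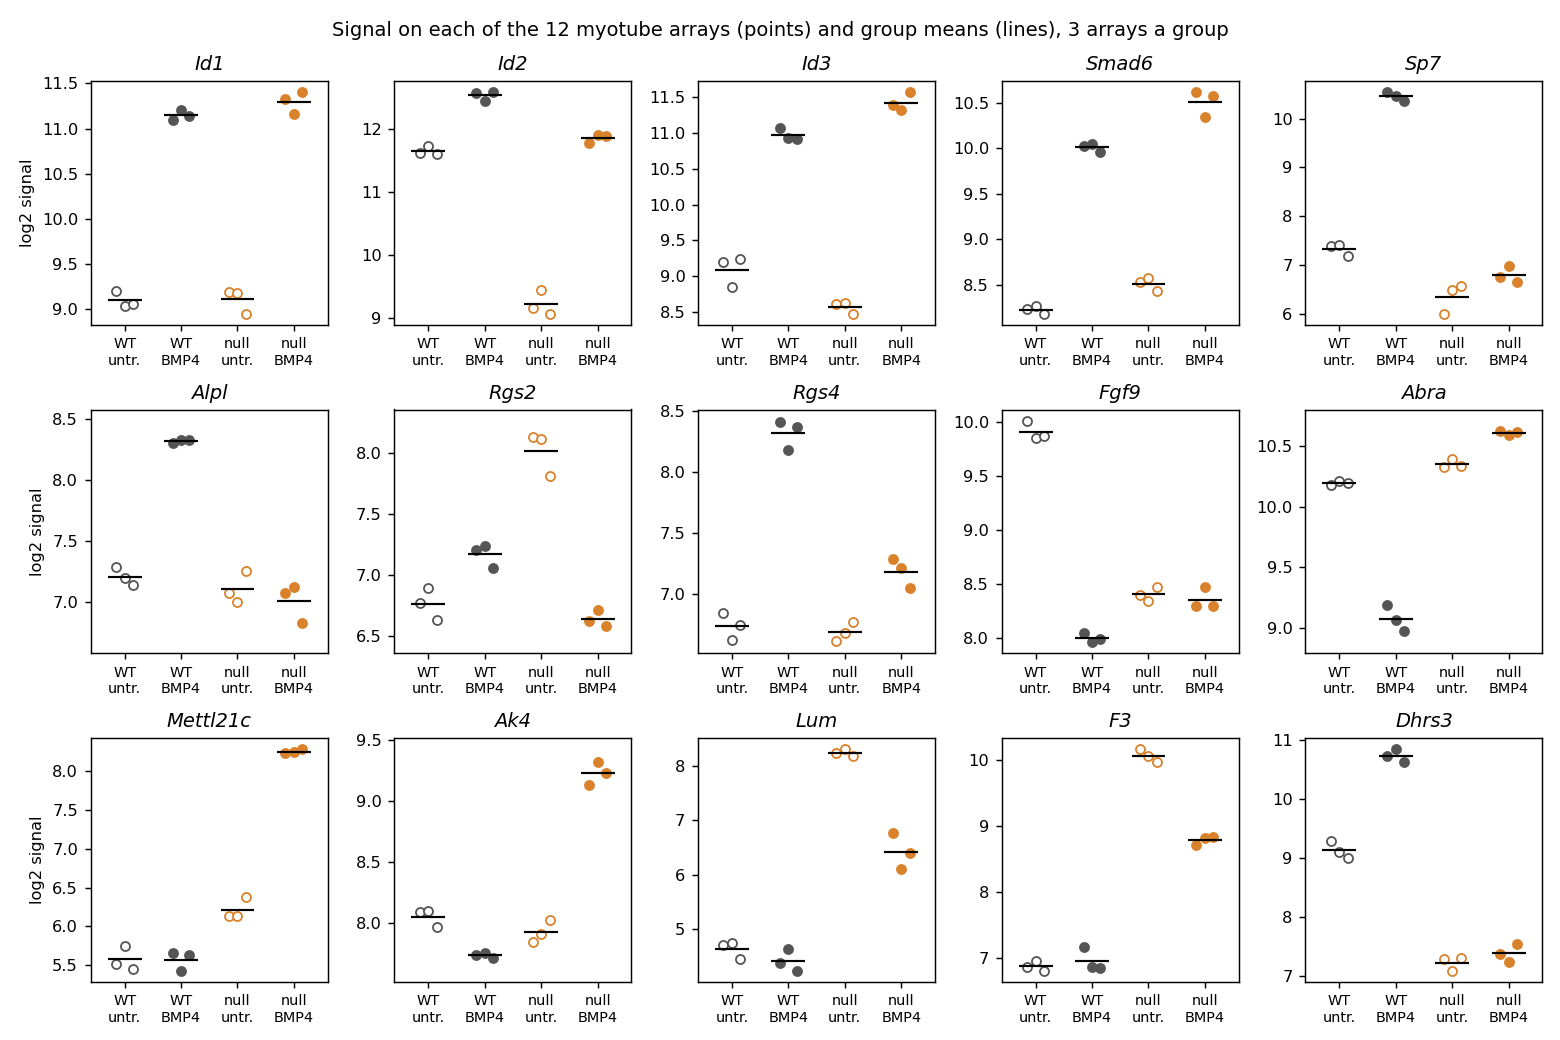
Log2 signal (y axis of each panel, scaled per gene with a span of at least 2) of 15 genes on the 12 myotube arrays; points are arrays (open untreated, filled BMP4; grey wild type, orange MuSK-null) and lines are the means of 3 arrays. Id1 and Smad6 rise in both lines, Sp7, Alpl and Dhrs3 rise on the wild-type arrays, and Mettl21c and Ak4 rise on the MuSK-null arrays.

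Among muscle genes, calls in the synapse list were near the share over all genes, and calls in the sarcomere list were above it. Of 24 genes of the neuromuscular synapse, to which Musk belongs, 1 was called (4.17%, against 3.21% of all genes), and the median difference was 0.011. It was Colq, the collagen tail that anchors acetylcholinesterase at the synapse. Colq read 9.39, 9.31 and 9.37 untreated and 8.88, 8.75 and 8.73 treated in wild type, and 8.71, 8.74 and 8.66 untreated and 9.00, 8.85 and 9.07 treated in MuSK-null. It fell by 0.57 in wild type (change -0.57) and rose by 0.27 in MuSK-null, a difference of 0.84 ± 0.09 (SE, adjusted p = 5.65e-06). Agrn, Lrp4, Dok7, Rapsn and the acetylcholine receptor subunits Chrna1, Chrnb1, Chrnd, Chrne and Chrng had differences between -0.19 (Chrne) and 0.10 (Chrnd), none called. Of 34 genes of calcium handling and excitation-contraction coupling 0 were called, with values from -0.203 to 0.333. Untreated, 14 of these 34 were lower and 1 higher in MuSK-null, where 18.0% of all genes were lower and 19.4% higher.

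Among 23 myogenic regulators 1 was called (4.35%, against 3.21% of all genes), Mymx (myomixer), a fusion peptide, which fell by 0.80 in wild type and by 1.37 in MuSK-null (changes -0.80 and -1.37, difference -0.57, adjusted p = 0.0129). Without untreated wild-type replicate 2 its adjusted p was 0.0506. Of 59 sarcomere genes 2 were higher and 4 lower, 10.2% of the list, with a median of -0.005. With each array left out in turn, 1 or 2 were higher and 3 or 4 lower. Besides Myh15, the lower ones included Nebl, the nebulin relative of cardiac and smooth muscle, which rose by 1.08 in wild type and changed by 0.22 in MuSK-null (difference -0.86, SE 0.13, adjusted p = 0.000235), and Myoz3 (-0.60, adjusted p = 0.00216), a Z-disc protein. The higher ones were Myh7b (0.69, adjusted p = 0.000836) and Myot (0.38, adjusted p = 0.028). Myot was lost when any 1 of 6 arrays was left out. The remaining lower call, Myoz1 (-0.54, adjusted p = 0.0403), was lost in most fits without 1 array. Myoz1 was named after its values were seen. Of these 59 genes, 35 were lower in untreated MuSK-null myotubes and 6 higher, where 18.0% of all genes were lower and 19.4% higher.

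Signalling lists beyond BMP had calls in both directions. In the Wnt list 4 of 53 were higher and 5 lower, 17.0% of the list against 3.21% of all genes, with a median of -0.047. Higher were Sfrp2, the R-spondin receptor Lgr6 (0.89, adjusted p = 0.000109), Wnt9a (0.86, adjusted p = 9.14e-05) and Fzd6 (0.42). Lower were Nkd2, the Wnt deacylase Notum (-0.82, adjusted p = 0.00269), Fzd9 (-0.62, adjusted p = 0.00432), Wnt11 (-0.60, adjusted p = 0.027) and Wnt4 (-0.49). Fzd6 and Wnt4 were named after their values were seen. The call of Wnt11 was lost in 6 of the 12 fits without 1 array and with the 12 myotube arrays alone, and the adjusted p reached 0.0967 at most. On a linear scale Lgr6 had the opposite sign. Its untreated level was lower in MuSK-null, 9.00 ± 0.13 (SD) against 10.90 ± 0.11. In the FGF list Fgf9 was higher, and Spry2 (-0.63, adjusted p = 0.000694), a feedback inhibitor of receptor tyrosine kinases, and Fgf2 (-0.52, adjusted p = 0.0112) were lower, of 27. These calls were 11.1% of the list. Spry2 and Fgf2 rose in both lines and less in MuSK-null, from higher untreated levels there. In the Notch list of 25, the largest lower call was Lfng, a glycosyltransferase that modifies Notch, which rose by 1.53 in wild type and 0.37 in MuSK-null (difference -1.16, SE 0.11, adjusted p = 9.56e-07).

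Of 26 immediate early genes 3 were higher and 0 lower: Egr3, Fosl1 (0.94, adjusted p = 0.00982) and Dusp1 (0.56, adjusted p = 0.00807). That was 11.5% of the list against 3.21% of all genes, with a median of -0.007. Fosl1, an AP-1 subunit, rose in MuSK-null alone, and Dusp1, a MAP kinase phosphatase, rose in both lines, each from a lower untreated level in MuSK-null. Of 24 genes of prostaglandin metabolism 1 was called (4.17%, near the 3.21% of all genes), Hpgd, which inactivates prostaglandins. It rose by 1.22 in wild type and 0.28 in MuSK-null (difference -0.94, SE 0.11, adjusted p = 1.58e-05), while Ptgs2, which makes them, did not pass (-0.34, adjusted p = 0.15). Among 28 Msx, Dlx, Tbx and Gata factors and relatives, Tbx20 (1.12, adjusted p = 0.000185) was higher and Prrx2 (-0.67, adjusted p = 8.08e-05) lower. These were 7.14% of the list, against 3.21% of all genes. Of 15 carbonic anhydrases Car8 (0.64) was higher and Car2 (-0.71, adjusted p = 0.000235) lower, 13.3% of the list against 3.21% of all genes. Car3, the muscle isoform, was not called (0.02, adjusted p = 0.936). The call of Car8 was lost when any 1 of 6 arrays was left out. Of the measured markers of endothelial cells (8), macrophages (8), adipocytes (7) and Schwann or neural cells (6), none had a called difference by limma. Pmp2, a myelin protein of the Schwann and neural list, was called lower in 2 of the fits that left out 1 array, without untreated wild-type replicate 3 (-0.78) or without wild-type BMP4 replicate 2 (-0.81). Pmp2 was named after its values were seen. Of 10 smooth muscle markers 1 was called (10.0%, against 3.21% of all genes), Synpo2, an actin-bundling protein. It changed by 0.32 in wild type (adjusted p = 0.00735) and by -0.54 in MuSK-null (adjusted p = 1.76e-05), a difference of -0.87 ± 0.11 (SE, adjusted p = 2.45e-05). In untreated MuSK-null myotubes 2 of these 10 markers were higher and 5 lower, where 19.4% of all genes were higher and 18.0% lower.

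**Figure D3:**
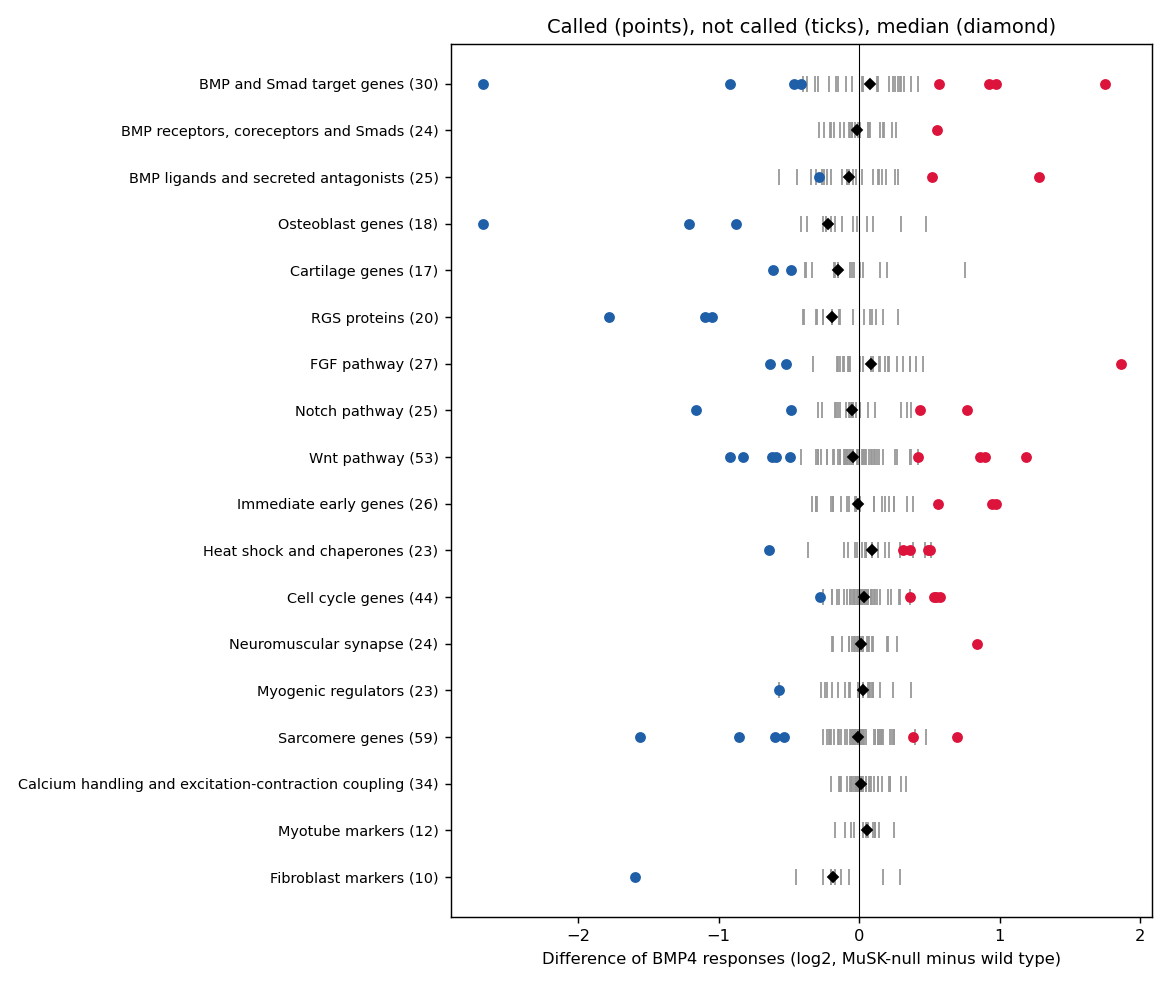
Difference of BMP4 responses (x axis, log2, MuSK-null minus wild type) of each measured member of 18 gene lists (y axis, number measured in parentheses); red and blue points are called members, grey ticks members not called, and black diamonds the medians. Medians lie near 0 while called members of the osteoblast, cartilage and RGS lists lie on the lower side alone.

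A difference of responses is also the treated gap between the lines minus the untreated gap, so both levels were read for each gene. Of the 640 genes, 267 (41.7%) had a smaller gap after BMP4, 165 (25.8%) a larger gap, and in 208 (32.5%) the gap changed sign. Over all 19938 genes the shares were 38.5%, 35.2% and 26.2%. The median gap of the 640 genes was 0.604 log2 units untreated and 0.486 treated, against 0.164 and 0.154 over all genes. The lines differed by the test both before and after BMP4 in 387 of the 640, in untreated myotubes alone in 138, and in treated myotubes alone in 115. Over all genes the untreated comparison called 7449 (37.4%) and the treated one 7242 (36.3%). Id2, Lum, Rrad and F3 were among the genes whose gap narrowed. Sp7, Mettl21c, Dhrs3, Alpl and Rgs4 were among those whose gap widened. Fgf9, Rgs2, Adm and Id3 changed sign with both gaps called. The untreated arrays enter both the untreated gap and the difference of responses, so these classes describe the genes and are not separate evidence.

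The sign of the difference depended on the scale of measurement for few genes. Its size can change between the scales where the untreated levels differ, as for Id2, and sizes were not compared. Computed on linear signals, 629 of the 640 differences kept their sign, and the 11 that did not were all higher on the log2 scale. Of the 640, 604 had a highest myotube group mean above the floor, and 36 did not. Hspb8, a small heat shock protein, had a large gap with a small difference of responses: it read 11.77, 12.02 and 11.62 untreated in wild type and 6.88, 7.15 and 7.03 in MuSK-null, and its difference was -0.65 (adjusted p = 0.0394). That call was lost when any 1 of 8 arrays was left out.

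**Figure D4:**
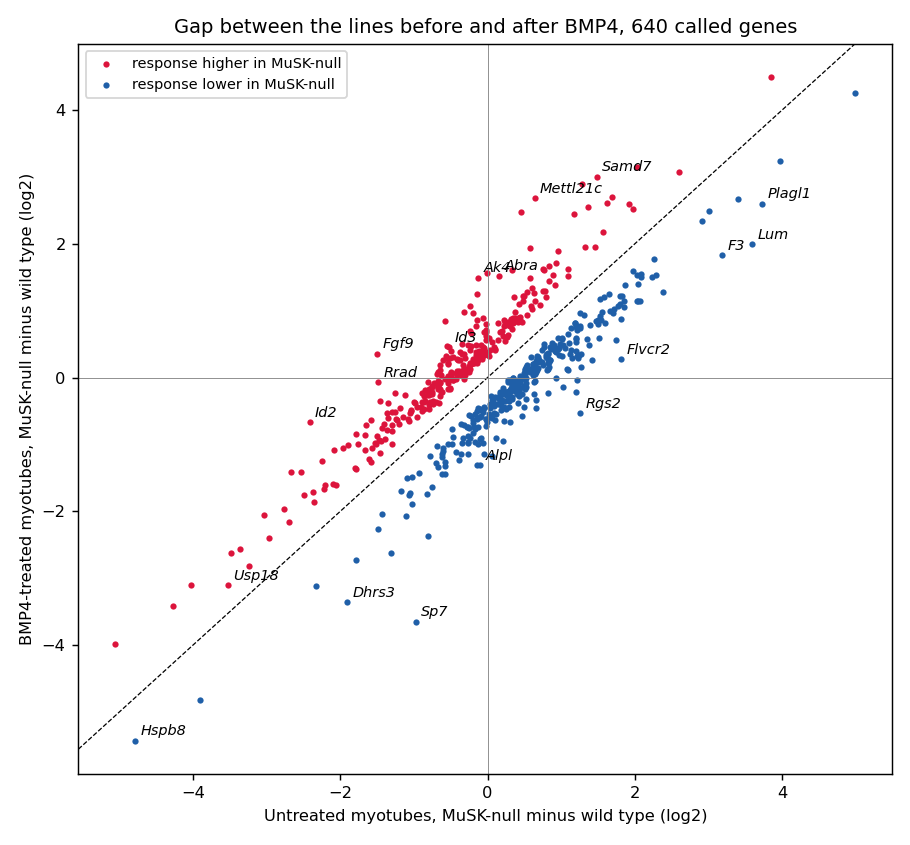
MuSK-null minus wild type in BMP4-treated myotubes (y axis, log2) against the same in untreated myotubes (x axis) for the 640 called genes; the dashed line marks an unchanged gap. Points above the line had the higher response in MuSK-null, and Sp7 at -0.97 untreated and -3.65 treated lies farthest below it.

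The same difference of responses was computed for myoblasts of the 2 lines, kept at 33 °C. Their serum percentage was higher than the 5% of myotubes, and treated myoblasts received 25 ng/ml BMP4 for 8 h, as treated myotubes did. The stages thus differed in temperature and serum percentage as well as in differentiation. In myoblasts 477 genes (2.39%) were called. Without the 4 myoblast arrays that deviated together 352 were called, of which 298 were among the 477. For treated myoblasts the labels give 4 h of serum deprivation, and for untreated ones they give no time, so serum and BMP4 cannot be told apart in myoblasts. The change from myoblasts to myotubes was tested directly and called for 498 genes (2.50%). Without those 4 arrays it was called for 488, of which 387 were among the 498. With centred arrays it was called for 546, of which 62.5% were higher, against 47.4% without centring. Of the 640 myotube genes, 72 were called in myoblasts with the same sign and no called change between stages, and 9 with the same sign and a called change. The 41 with opposite signs all had a called change. A further 206 were not called in myoblasts and had a called change between stages, and for 312 neither passed. Without the same 4 arrays, the change between stages was still called for all 41 genes. In that fit 37 genes met every condition of the class, of which 27 were among the 41.

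Sp7 and Alpl belonged to the genes with the same sign in both stages. Their differences in myoblasts were -1.67 (adjusted p = 9.59e-06) and -1.04 (adjusted p = 0.000182), and the change between stages was -1.01 ± 0.27 (SE, adjusted p = 0.0511) for Sp7 and -0.18 ± 0.21 (SE, adjusted p = 0.813) for Alpl. Rgs4 was lower in both, at -1.88 in myoblasts, with a called change of 0.78 (adjusted p = 0.0181). Hpgd (-2.35 in myoblasts) and the receptor Adcyap1r1 (-2.23 in myoblasts, -1.18 in myotubes) were also lower in both, with called changes of 1.41 and 1.06 (adjusted p = 1.52e-05 and 0.00682). Id2 and Id3 had opposite signs in the 2 stages. Id2 went from -0.87 in myoblasts to 1.75 in myotubes, a change of 2.61 ± 0.16 (SE, adjusted p = 2.18e-09). Id3 went from -1.60 to 0.97, a change of 2.58 ± 0.18 (SE, adjusted p = 1.61e-08). Id1 was -1.45 in myoblasts and 0.14 in myotubes, so its called change of 1.59 (adjusted p = 8.85e-07) ended in a difference that did not pass. Fgf9, Mettl21c and Prr9 were not called in myoblasts (0.23, 0.18 and -0.30), and their changes between stages were 1.63, 1.86 and 2.32 (adjusted p = 2.87e-05, 8.85e-07 and 4.69e-07). Without the 4 deviating myoblast arrays, the changes between stages were 2.55 (adjusted p = 1.49e-06) for Id2, 2.64 (adjusted p = 2.75e-06) for Id3 and 1.55 (adjusted p = 4.99e-05) for Id1. They were 0.82 (adjusted p = 0.0393) for Rgs4, 1.48 (adjusted p = 5.7e-05) for Hpgd and 1.13 (adjusted p = 0.0103) for Adcyap1r1. For Fgf9, Mettl21c and Prr9 they were 1.49 (adjusted p = 0.000156), 1.88 (adjusted p = 2.39e-05) and 2.41 (adjusted p = 1.56e-05). These changes were all still called, and those of Sp7 (-1.04, adjusted p = 0.0715) and Alpl (-0.27, adjusted p = 0.574) still were not. The differences of Fgf9, Mettl21c and Prr9 in myoblasts were again not called.

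**Figure D5:**
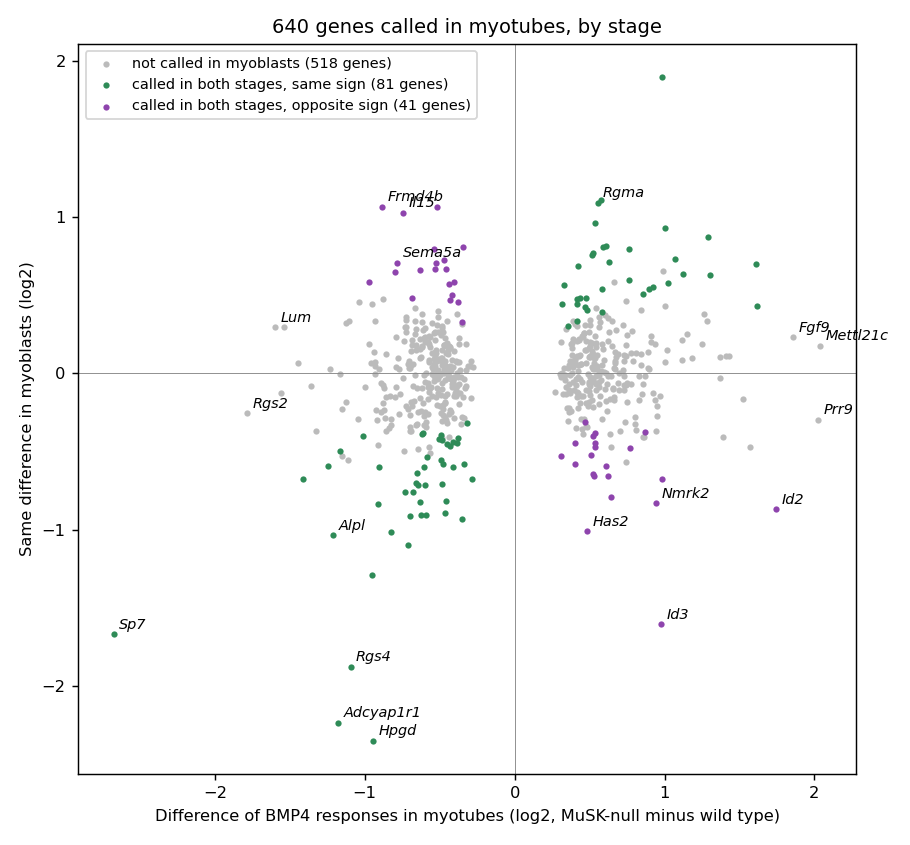
Difference of BMP4 responses (log2, MuSK-null minus wild type) in myoblasts (y axis) against myotubes (x axis) for the 640 genes called in myotubes, coloured by whether myoblasts were called too. Sp7, Alpl, Rgs4, Adcyap1r1 and Hpgd lie in the lower left, and Id2 and Id3 lie at the lower right with opposite signs in the 2 stages.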

How the data were processed

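Myotube RNA of 4 groups of 3 arrays was compared. The authors deposited 1 log2 value per probe set and array, with the scale read from the values (2.50 to 15.03). Affymetrix Expression Console and Partek appear in the submitters' processing notes without roles or versions, and how the values were normalized is not given in those notes. Arrays carry no counts, so their number limits the precision. Of 35556 rows, 21789 named 1 gene in the platform annotation, 1621 several and 12146 none. For 999 genes with several rows the row with the highest mean was kept, leaving 19938 genes. A limma 3.58.1 (R 4.3.3) model with 8 group means was fitted to all 24 arrays (16 residual degrees of freedom, moderated statistics). Adjusted p-values are Benjamini-Hochberg values over 19938 genes, called under 0.05. The script was tested on simulated data. Genes named by rule are the 15 largest called differences in each direction above the floor, for each list the 3 largest called members each way, and 19 set genes. The text uses fewer. The members and the 35 gene lists were chosen with earlier results of these data known, so the shares called in them are not separate evidence. Alternatives were the 12 arrays alone, trended robust moderation, a dim-gene filter, quantile normalization, centring, each row as its own test, a replicate block, a fold minimum of 1.5 and each array left out. Leaving out 4 myoblast arrays was added after seeing the data. Promoters came from RefSeq (GRCm38.p6), and 490 of the 640 called genes had one.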

Additional observations from a re-analysis of the deposited data

Results flagged for a closer look

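The BMP4 response differed between the 2 lines in 640 genes by limma. The sign of that difference was opposite in myoblasts and myotubes, with a called change between stages, in 41 genes. Each value below is the myotube difference minus the myoblast difference in log2 units, and each had an adjusted p under 0.05 in limma. It was 2.61 for Id2 and 2.58 for Id3, inhibitors of differentiation factors. It was 1.77 for Nmrk2, a muscle kinase of NAD synthesis, 1.5 for Has2, a hyaluronan synthase, 1.24 for Ankrd1, a stretch-responsive ankyrin repeat protein, and 1.21 for Hgf, hepatocyte growth factor. Csf1, a macrophage growth factor, had 0.99, and Pdk4, an inhibitor of pyruvate dehydrogenase, 0.91. Frmd4b had -1.95, Plet1 -1.56 and the cytokine Il15 -1.77. Among semaphorins, which are guidance cues, Sema3a had 1.19, Sema3e -0.99, Sema5a -1.49 and Sema7a -1.29. The semaphorins, Hgf, Has2, Nmrk2, Ankrd1, Frmd4b and Plet1 were named after their values were seen. Without the 4 myoblast arrays that deviated together, all 15 changes between stages kept their sign and were called. In that fit the myoblast difference itself was no longer called for Hgf (adjusted p = 0.276), Pdk4 (0.216) and Sema7a (0.0811). In myotubes, the calls of Csf1, Sema7a, Hgf and Sema3e were each lost when 1 of several arrays was left out. The serum deprivation of treated myoblasts cannot be told apart from BMP4 in these stage differences. The stages also differed in temperature and serum percentage.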

How the results depend on the processing

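The count of 640 genes lay between 549 and 884 under another set of arrays, moderation, a dim-gene filter, quantile normalization, centring or each row as its own test. The 12 myotube arrays alone gave 549, of which 470 were among the 640, and the fit without the 4 deviating myoblast arrays gave 884, with 628 of the 640. A fold minimum of 1.5 left 281 differences of responses, 356 wild-type responses, 546 MuSK-null responses, 2297 untreated and 2217 treated genotype differences. By its construction that minimum removes small changes. With each myotube array left out in turn, the counts ran from 473 to 617 for the difference of responses, 1333 to 1772 for wild type, 1759 to 2258 for MuSK-null, 6547 to 7493 for the untreated and 6516 to 7233 for the treated comparison, and 392 to 484 for the change between stages. Whether replicate numbers pair the myotube arrays is not known. The 18 same-number pairs had correlations of deviations of -0.276 to 0.33, and 5 exceeded 0.1. Pairs with different numbers were not computed, so these values have no reference. The replicate block called 638 genes, of which 605 were among the 640. No called gene named by rule changed the direction of its difference under any alternative run. Centring changed the split by direction, as given above. Signals near the floor limit what can be read of low levels, and 3 arrays a group limit the precision. Genotype and cell line cannot be told apart, since each genotype is 1 line.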

Other observations

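Other called genes of muscle and matrix were not described above. Tgfb2, a transforming growth factor ligand, went from 10.83 ± 0.01 to 10.87 ± 0.08 (SD) in wild type and from 10.46 ± 0.06 to 11.26 ± 0.08 in MuSK-null, a difference of 0.75 ± 0.15 (SE, adjusted p = 0.00318). Podn, a small leucine-rich proteoglycan like Lum, rose in wild type (0.66) and changed by -0.06 in MuSK-null, a difference of -0.71 ± 0.09 (SE, adjusted p = 3.65e-05). Of 14 such proteoglycans 0 were called higher and 2 lower, Lum and Podn, 14.3% of the list against 3.21% of all genes. Lpl, lipoprotein lipase, rose by 0.89 in wild type and changed by 0.20 in MuSK-null (difference -0.70, SE 0.13, adjusted p = 0.00321). Scn3b, a sodium channel beta subunit, changed by -0.13 and 0.58 (difference 0.71, SE 0.13, adjusted p = 0.00192). Ccnd1, cyclin D1, changed by 0.01 in wild type and rose by 0.56 in MuSK-null, where its untreated level was lower (MuSK-null minus wild type -2.22), and its difference was 0.55 ± 0.09 (SE, adjusted p = 0.000649).

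Interferon-stimulated genes differed between the lines before BMP4. Of 29 measured, 26 were lower and 1 higher in untreated MuSK-null myotubes, with a median of -1.26 log2 units, where 18.0% of all genes were lower and 19.4% higher. For the difference of responses 1 of the 29 was called (3.45%, near the 3.21% of all genes). It was Usp18 (0.42, adjusted p = 0.0437). That call was lost when any 1 of 9 arrays was left out, and with the 12 myotube arrays alone. Without untreated wild-type replicate 3 the calls numbered 3, with Rsad2 (0.85) and Iigp1 (0.74), both named after their values were seen. Of 23 heat shock and chaperone genes 4 were called higher and 1 lower, 21.7% of the list against 3.21% of all genes. With 1 array left out the higher calls ranged from 1 to 4. Among them Hspb6 was called in every such fit (0.36, adjusted p = 0.00982).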
